A study of Mus musculus with 16 samples.

Results

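The change of the exposure effect between day 1 and day 5 was measured over all 16 libraries of the series (16 of 16 samples, 4 in each of 4 groups). For each gene the quantity was the interaction, that is the log2 difference between exposed and uninfected cultures at day 5 minus the same difference at day 1. All cultures were wild-type MPI-2 cells, a mouse line with features of alveolar macrophages kept in medium with GM-CSF (a growth factor that alveolar macrophages need) and taken between passages p8 and p50. The groups were uninfected cells at day 1, cells exposed to Mycobacterium abscessus at day 1, uninfected cells at day 5 and exposed cells at day 5. Each group held 4 biological replicates of this single line, so p-values measure the spread between cultures of 1 line. The strain, the dose and the share of infected cells are not given in the sources used here. In bulk RNA, fewer cells of a kind and less RNA per cell cannot be told apart.

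Mycobacterium abscessus is a fast-growing nontuberculous mycobacterium that can survive inside macrophages. Macrophages sense mycobacteria through Toll-like receptors and C-type lectins, which act through NF-kB to switch on cytokines and chemokines, and through type I interferon, which switches on interferon-stimulated genes. Feedback inhibitors such as SOCS1 and A20 restrain these responses, and alveolar macrophages in GM-CSF can also divide and renew themselves. A positive interaction can mean a stronger induction, a weaker repression or a change of sign, so each result below is given with the effect at both days.

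The libraries held 46154875 to 81995629 counts, and 17190 of 55359 genes passed the filter on low counts. Spread differed between groups: the median SD of a gene on the log2 CPM scale (CPM, counts relative to the scaled library total) was 0.113 in uninfected day 1, 0.144 in exposed day 1, 0.148 in uninfected day 5 and 0.299 in exposed day 5 libraries. General macrophage markers summed to 3780 to 4120 CPM in uninfected day 1, 6030 to 6930 in exposed day 1, 4160 to 4780 in uninfected day 5 and 8370 to 13900 CPM in exposed day 5 libraries, and all 12 passed the filter. The alveolar markers, of which 21 of 22 passed, summed to 20500 to 22400, 16700 to 19500, 24000 to 31400 and 15700 to 19200 CPM in the same order. Cd3e, a defining T-cell gene, had 2, 0, 1 and 0 counts over the 4 libraries of each group. The markers of T and NK cells summed to 2.26 to 3.29, 4.93 to 6.21, 2.42 to 3.03 and 12.5 to 18.5 CPM in that order. Of these markers 3 of 10 passed the filter, and all 3 were raised at day 5. The neutrophil gene Retnlg had 0 counts in every group, but the neutrophil markers summed to 517 to 601, 950 to 1210, 613 to 779 and 469 to 952 CPM. Whether other cells were present was not tested. The file names of exposed day 5 replicates 2 and 3 carry another library code series than the rest.

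The exposure effect differed between days for 6173 genes, 35.9% of those tested (edgeR's quasi-likelihood test, Benjamini-Hochberg adjusted p under 0.05). It was higher at day 5 for 2826 genes (16.4%) and lower for 3347 (19.5%), and the interaction was at least 2-fold for 1226 (7.13%) and 1302 (7.57%) of them. The shares of 16.4% and 19.5% are those to set beside the counts of the gene lists below. At day 1 exposure had raised 2297 genes (13.4%) and lowered 1800 (10.5%). At day 5 it raised 4918 (28.6%) and lowered 4879 (28.4%). The median interaction over all genes was -0.04. Few counts lay behind some of these genes: 59 of the 2826 higher and 26 of the 3347 lower ones had a group with 3 counts or fewer in all.

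Interaction genes were sorted by their calls at each day, in a model with 1 dispersion per gene for all groups. Most had no called effect at day 1. These late effects numbered 1830 raised at day 5 (10.6% of genes tested, median log2 -0.01 at day 1 and 0.88 at day 5) and 2225 lowered (12.9%, -0.03 and -0.86). A further 586 genes were raised at both days and more so at day 5 (3.41%, 0.88 and 2.08), and another 586 were lowered at both days and more so at day 5 (3.41%, -0.41 and -1.1). Effects that shrank were rare, with 26 genes (0.151%) raised at both days but less at day 5 and 5 (0.0291%) lowered at both days but less at day 5. The effect present at day 1 was no longer called at day 5 for 232 raised (1.35%) and 175 lowered genes (1.02%). It turned sign, with a call at each day, for 157 genes (0.913%) from raised to lowered and for 122 (0.71%) from lowered to raised. The remaining 229 (1.33%) were called at neither day. With limma's voom and weights per group, late effects were fewer, at 1397 raised and 1390 lowered genes among 6158 calls. There 177 were called at neither day. Genes with no called effect at day 1 were then no longer most of the calls.

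**Figure D1:**
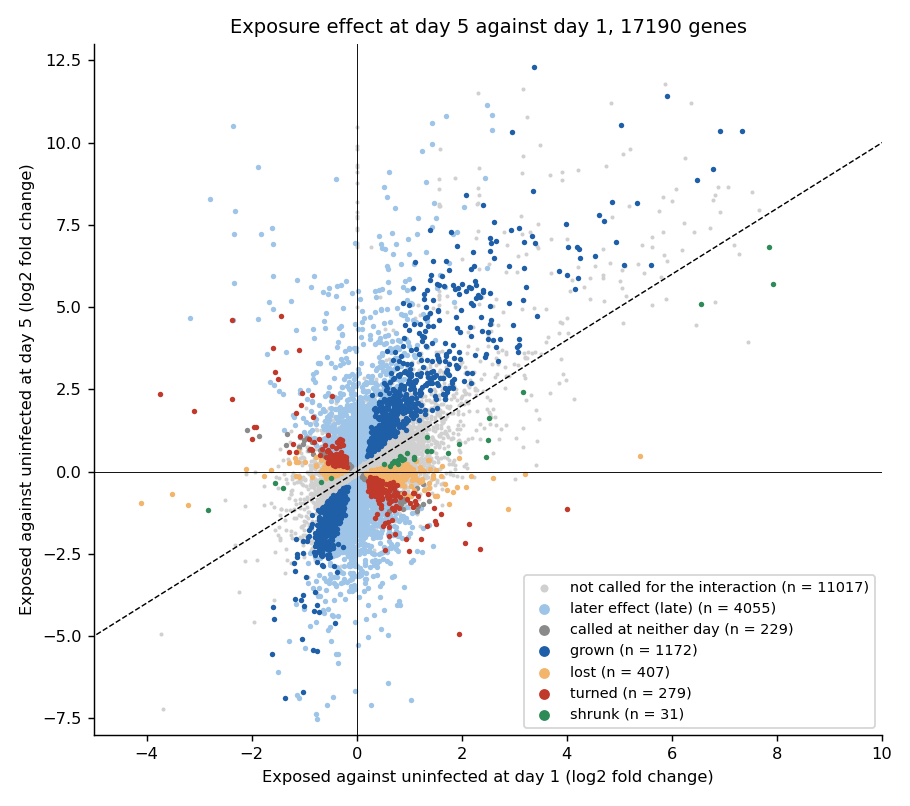
Log2 fold change of exposed against uninfected cultures at day 1 (x axis) and at day 5 (y axis), 1 point per gene tested, coloured by class; the dashed line marks equal effects at both days and 2 genes lie outside the axes. The late genes run along the vertical line at 0, the grown genes lie farther from 0 on the y axis than on the x axis, and the 31 shrunk genes lie between the dashed line and the horizontal axis.

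The numbers of turned, lost and shrunk genes depended on single libraries more than those of late and grown genes. Without exposed day 5 replicate 3, 307 genes turned from raised to lowered, 322 turned from lowered to raised, 371 raised and 335 lowered genes were lost, and 17 shrank from the lowered side. Without uninfected day 1 replicate 4 the same numbers were 94, 58, 157 and 89 for the turned and lost classes. Without uninfected day 1 replicate 1, 98 turned from raised to lowered, 62 turned from lowered to raised, 112 lowered genes were lost and 17 raised genes shrank. Leaving out any one of the exposed day 1 libraries gave 67 to 78 genes turned from lowered to raised, and leaving out uninfected day 1 replicate 3 gave 74. The number of lowered genes lost was 112 to 114 without exposed day 1 replicate 1, 3 or 4. In every one of these fits 0 genes were called with the opposite sign of interaction.

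An interaction can come from either arm, so the change from day 1 to day 5 was also taken within each. Between days, uninfected cultures raised 1852 genes (10.8%) and lowered 1532 (8.91%), and exposed cultures raised 4406 (25.6%) and lowered 4335 (25.2%). The change was larger in size in the exposed arm for 4965 of the 6173 interaction genes (80.4%), against 11505 of all 17190 genes tested (66.9%). The share varied with class: it was 546 of 586 in each grown class, 1579 of 1830 and 1850 of 2225 in the late classes, but 62 of 232 for the lost raised genes, 66 of 175 for the lost lowered genes and 6 of 26 for the shrunk raised genes. In those last 3 classes the uninfected cultures moved more between days for 170, 109 and 20 genes.

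**Figure D2:**
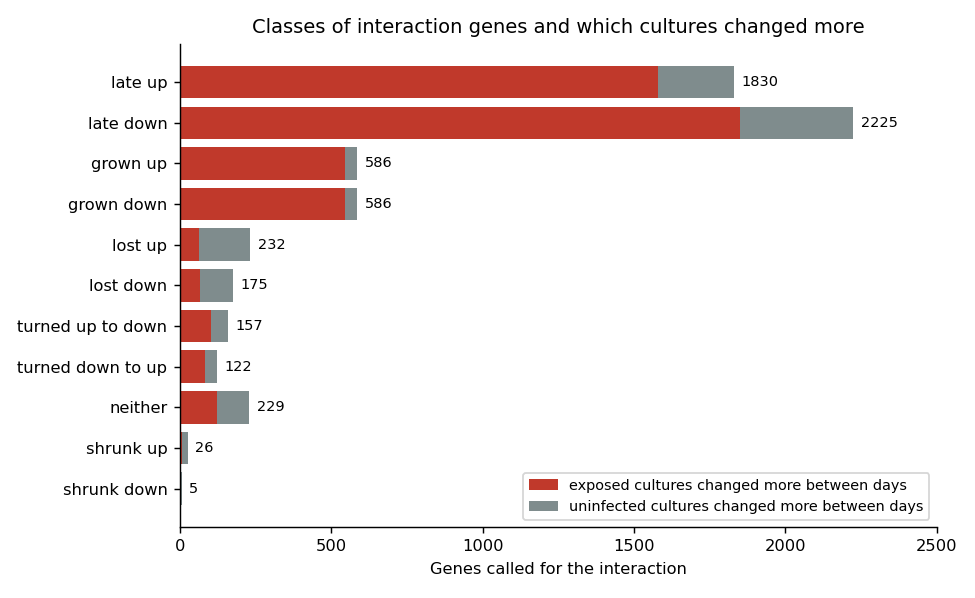
Number of genes called for the interaction in each class (bar length, value at the end), split by which cultures changed more in size between day 1 and day 5. Exposed cultures carry most of the late and grown bars, and uninfected cultures carry most of the lost up, lost down and shrunk up bars.

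**Figure D3:**
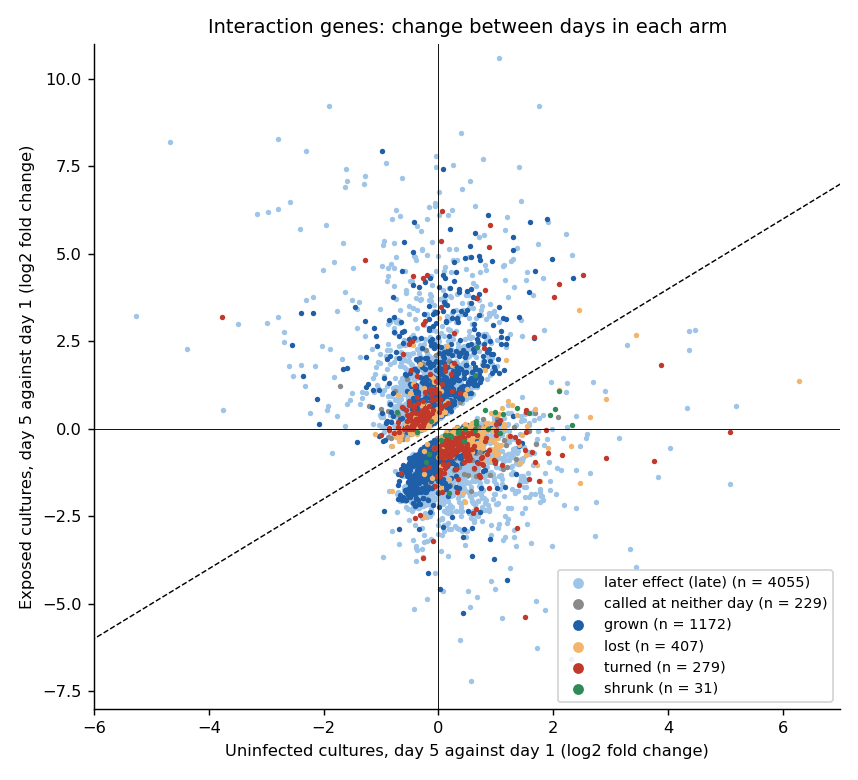
Log2 fold change from day 1 to day 5 in uninfected cultures (x axis) and in exposed cultures (y axis) for the 6173 interaction genes, coloured by class; the dashed line marks equal changes. Late and grown genes spread mainly along the y axis.

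Of 7 tested CXC chemokines and receptors 2 had a higher effect at day 5, 1 had a lower one and 4 were not called. Among all genes tested 16.4% were higher and 19.5% lower. Cxcl2, which was higher and encodes a neutrophil-attracting chemokine, stood at 5.54, 4.08, 6.48 and 5.03 CPM in uninfected day 1 libraries 1 to 4 and at 7.59, 6.92, 9.03 and 10.5 CPM in exposed ones. On day 5 it stood at 5.41, 5.51, 5.94 and 6.77 CPM in uninfected and at 216, 1130, 256 and 727 CPM in exposed libraries. The day 1 groups did not overlap but lay close, and at day 5 all 4 exposed libraries were far above the uninfected ones, with replicates 2 and 4 the highest. The effect was 0.69 ± 0.40 (log2 ± SE, adjusted p = 0.232) at day 1 and 6.63 ± 0.48 at day 5, and the interaction was 5.94 ± 0.59 (adjusted p = 1.62e-06). Il6, a cytokine of the acute-phase response, stood at 2.09, 1.94, 2.63 and 2.41 CPM in exposed libraries of day 1 and at 19.3, 121, 32.4 and 96 CPM in those of day 5, against 0.389, 0.236, 0.326 and 0.217 CPM and 0.292, 0.264, 0.495 and 0.582 CPM in uninfected ones. Exposed replicates 2 and 4 were again the highest at day 5, and the groups did not overlap. It was already raised at day 1 (2.93 ± 0.59) and more so at day 5 (7.36 ± 0.56), with an interaction of 4.43 ± 0.90 (adjusted p = 0.00118). The 120 bases before the annotated start of both genes are shown because they hold a form of the NF-kB motif (GGG, any 2 bases, then TTTCC) in capitals. In RefSeq's GRCm38.p6 annotation the stretch of Cxcl2 is chr5:90903779-90903898 on the plus strand and that of Il6 is chr5:30012994-30013113 on the plus strand.
Cxcl2: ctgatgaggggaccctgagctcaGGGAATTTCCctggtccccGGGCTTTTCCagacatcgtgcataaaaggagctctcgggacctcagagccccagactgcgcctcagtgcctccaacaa
Il6: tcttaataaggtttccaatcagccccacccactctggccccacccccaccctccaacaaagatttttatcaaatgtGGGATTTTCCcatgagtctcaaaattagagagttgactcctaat
The motif was searched on both strands in 300-base windows, and 1.62% of 27025 promoters held it; among genes with a promoter in the table, 4.62% of the 433 grown raised genes, 1.52% of the 1248 late raised genes, the class of Cxcl2, and 1.77% of all genes tested did. A match describes the letters and is not a binding site or a cause.

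Among the CC chemokines and their receptors 9 of 16 tested members had a higher effect at day 5 and 2 a lower one, with a median interaction of 2.15 against -0.04 for all genes. Ccl17 and Ccl3 had no called effect at day 1 (0.09 and 0.26) and reached 4.89 and 4.03 at day 5. The interaction was 4.80 ± 0.55 (adjusted p = 2.84e-06) for Ccl17, a ligand of CCR4. For Ccl3, an inflammatory chemokine, it was 3.78 ± 0.45 (adjusted p = 1.04e-05). Ccrl2, an atypical receptor that binds chemerin, had grown from 1.45 to 6.40. Ccr2, the receptor of CCL2 that draws monocytes into tissue, went the other way. It stood at 0.477, 0.522, 0.633 and 0.452 CPM in uninfected and 0.678, 0.848, 0.394 and 0.699 CPM in exposed day 1 libraries, at 1.26, 1.29, 1.52 and 1.23 CPM in uninfected day 5 libraries and at 0.0961, 0.0146, 0.0359 and 0.104 CPM in exposed day 5 libraries. All 4 exposed day 5 libraries lay below every other library, on 16 counts in all, and the interaction was -4.69 ± 0.48 (adjusted p = 8.9e-07).

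The interleukin-1 family split in both directions, with 7 of 13 tested members higher and 5 lower. Il1b grew from 2.61 to 7.58 (interaction 4.98 ± 0.38, adjusted p = 9.27e-08) and Il1a from 1.21 to 4.48. Il1rn, which encodes the receptor antagonist of the family, was not called at day 1 (0.47) and reached 3.35 at day 5. Il18, which encodes a cytokine that is stored as an inactive precursor, turned sign instead. Its level was 60, 62, 58.1 and 58 CPM in uninfected and 82.7, 88.7, 91.6 and 97 CPM in exposed day 1 libraries. The day 5 values were 76.8, 72.1, 69.8 and 77.7 CPM without and 29.4, 20.7, 33.5 and 19.3 CPM with exposure. The groups did not overlap at either day, with exposed libraries above at day 1 and below at day 5. The effects were 0.60 ± 0.13 and -1.53 ± 0.13, and the interaction was -2.12 ± 0.18 (adjusted p = 8.22e-08). Among interleukins and colony-stimulating factors 9 of 17 were higher and 3 lower, with medians of 0.97 at day 1 and 3.26 at day 5. Tnf, a member of this list, grew from 1.95 to 5.40, and Tnfsf15, which encodes the TNF-family ligand TL1A, from 2.89 to 6.25. For 3 defence genes the controls had too few counts for a reliable estimate. Csf2 had 0 counts in each uninfected group and 29 and 1656 in exposed libraries of day 1 and day 5. Nos2 had 0 and 85 against 9 and 5781, and Ifnb1 had 0 and 13 against 56 and 428. The interaction of Csf2 was called with DESeq2 and with voom but not in the main model. That of Ifnb1 was not called, and its estimate was negative in the main model and of either sign among the alternatives.

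NF-kB genes and their inhibitors had higher effects at day 5. Of 15 NF-kB subunits and inhibitors 9 had a higher effect at day 5 and 0 a lower one, and the list's median effect was 0.45 at day 1 and 1.12 at day 5. Relb grew from 1.38 to 2.72, Nfkb2 from 0.79 to 1.83, and Nfkbia, which encodes the inhibitor IkB-alpha, from 0.82 to 1.93. Of 24 brakes on inflammation 14 were higher and 4 lower, the latter near the 19.5% of all genes tested. Tnfaip3 (A20, a ubiquitin-editing inhibitor of NF-kB) had an interaction of 2.02 ± 0.21 (adjusted p = 1.5e-06), Tnip3 (an A20-binding protein) one of 3.55 ± 0.26 (adjusted p = 2.51e-08), and Irak3 (an inhibitor of Toll-like receptor signalling) one of 1.65 ± 0.19 (adjusted p = 2.51e-06). Zfp36, whose product tristetraprolin destabilises cytokine mRNAs, was among those that went against the list: it was not called at day 1 (-0.15) and was lowered at day 5 (-1.10), with an interaction of -0.95 ± 0.11 (adjusted p = 4.93e-06).

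Interferon-stimulated genes were already raised at day 1, and 13 of 31 effectors were raised further by day 5. All 31 tested type I interferon effectors were raised at both days, with medians of 5.09 and 6.28; 13 grew, 3 shrank and 15 were not called for the interaction. The interferon-inducible GTPases, which attack pathogen-containing vacuoles, had 9 of 15 members higher and 0 lower, with medians of 2.98 and 4.46. Gbp2 of this family stood at 8.78, 8.27, 6.46 and 8.38 CPM in uninfected and at 74.5, 73.1, 63.4 and 78.2 CPM in exposed day 1 libraries. At day 5 the values were 7.4, 6.39, 8.17 and 6.42 CPM in uninfected and 259, 776, 264 and 763 CPM in exposed libraries. Exposed libraries lay above uninfected ones at both days and replicates 2 and 4 of exposed day 5 were the highest. The effect grew from 3.18 ± 0.32 to 6.18 ± 0.36, an interaction of 3.00 ± 0.42 (adjusted p = 5.43e-05). Gbp3 grew from 4.01 to 5.98, Gbp6 from 2.98 to 4.46, Irgm1 from 2.59 to 4.01, and among the effectors Bst2 (tetherin) from 2.49 to 4.26 and Trim30a from 4.22 to 5.90. Gbp, Serpina3 and class I H2 genes have close copies, and the sources used here do not say which gene received a read that matched several.

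Socs1, the feedback inhibitor of interferon signalling, was one of the few genes whose effect shrank. It stood at 2.89, 2.69, 3.51 and 3.26 CPM in uninfected and at 10.5, 10.2, 9.36 and 11.1 CPM in exposed day 1 libraries. Values on day 5 were 6.67, 6.6, 6.36 and 6.11 CPM without exposure and 7.87, 8.74, 7.83 and 13.4 CPM with it. The groups did not overlap at either day, and exposed replicate 4 stood above its group at day 5. The effect was 1.74 ± 0.15 at day 1 and 0.55 ± 0.14 at day 5, and the interaction was -1.19 ± 0.21 (adjusted p = 0.000221). Uninfected cultures rose by 1.06 between days and the exposed ones had a day change of -0.12. The 120 bases before the starts of Gbp2, Gbp3 and Socs1 are shown together because the first 2 grew and the last shrank while all 3 hold, in capitals, the core of the interferon-stimulated response element (ISRE: GAAA, any 2 bases, then GAAA), read from the opposite strand in Gbp2 and Gbp3; the hits of Gbp3 and of Socs1 overlap each other. The stretches are chr3:142620543-142620662 (Gbp2, plus strand), chr3:142559924-142560043 (Gbp3, plus strand) and chr16:10785537-10785656 (Socs1, minus strand) of GRCm38.p6, from RefSeq.
Gbp2: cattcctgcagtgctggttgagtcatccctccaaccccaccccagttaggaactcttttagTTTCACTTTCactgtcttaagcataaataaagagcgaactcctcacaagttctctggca
Gbp3: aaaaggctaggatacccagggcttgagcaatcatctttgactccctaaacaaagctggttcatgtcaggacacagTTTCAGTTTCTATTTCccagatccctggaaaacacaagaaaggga
Socs1: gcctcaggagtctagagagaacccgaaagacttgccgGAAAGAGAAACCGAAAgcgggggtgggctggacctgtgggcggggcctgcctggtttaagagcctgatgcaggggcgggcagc
The ISRE letters stood in 3.49% of all promoters, in 3.23% of those of the genes tested, in 10 of 10 GTPase promoters, in 13 of 25 promoters of type I interferon effectors, in 10.9% of those of the grown raised genes and in 4 of 16 of those of the shrunk raised genes.

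Oas2, a sensor of double-stranded RNA, shows that the direction of an interaction can depend on the scale. It stood at 2.01, 1.29, 1.36 and 1.75 CPM in uninfected and 142, 158, 109 and 194 CPM in exposed day 1 libraries. Day 5 libraries held 7.87, 6.08, 7.07 and 5.12 CPM without and 204, 184, 274 and 236 CPM with exposure. The effect was 6.55 ± 0.22 at day 1 and 5.10 ± 0.20 at day 5, an interaction of -1.45 ± 0.26 (adjusted p = 0.000402), while the uninfected cultures rose by 2.03. On the linear scale the exposed-minus-uninfected difference was larger at day 5 by 68.9 CPM. Such opposite signs were found for 11 of the 6173 interaction genes, 5 of them among the 26 shrunk raised genes. The third shrunk effector besides Oas2 and Rtp4 was Ifi27l2a, with 3.18 at day 1, 2.42 at day 5 and an interaction of -0.76; Rtp4 had the class shrunk in 12 of 27 settings only.

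Serpina3g, an intracellular serpin that inhibits cathepsins, lost most of its effect by day 5. It stood at 6.8, 6.89, 7.02 and 6.68 CPM in uninfected and 39.7, 35, 36.2 and 40.7 CPM in exposed day 1 libraries. Day 5 values were 9.22, 10.4, 6.03 and 5.47 CPM in uninfected and 12, 10.2, 11.2 and 9 CPM in exposed libraries, so that the groups, far apart at day 1, overlapped at day 5. The effect was 2.47 ± 0.16 and then 0.45 ± 0.15 (adjusted p = 0.0177), and the interaction was -2.02 ± 0.22 (adjusted p = 1.56e-06). The day 5 effect was no longer called without exposed day 5 replicate 1 (0.38, adjusted p = 0.0553), uninfected day 5 replicate 3 (0.34, adjusted p = 0.0755) or uninfected day 5 replicate 4 (0.31, adjusted p = 0.0697), while the interaction stayed between -2.16 and -1.85 in fits with 1 library left out. Its promoter, at chr12:104236027-104236146 on the plus strand of GRCm38.p6, is shown because it holds the same NF-kB letters as Cxcl2 and Il6 above, whose effects were larger at day 5.
Serpina3g: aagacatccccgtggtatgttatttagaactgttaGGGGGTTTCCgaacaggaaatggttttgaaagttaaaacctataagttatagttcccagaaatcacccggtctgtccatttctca

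Antimicrobial and acute-phase genes had 12 of 20 members higher and 1 lower, with a median interaction of 1.34. Lcn2, which encodes a protein that takes iron-carrying siderophores from bacteria, turned from lowered to raised. Its values were 3.52, 3.29, 3 and 2.71 CPM in uninfected and 1.21, 0.901, 1.23 and 1.32 CPM in exposed day 1 libraries. By day 5 they were 2.4, 2.25, 4.55 and 3.84 CPM in uninfected and 57.4, 109, 65.7 and 118 CPM in exposed libraries. Exposed libraries were all below the uninfected ones at day 1 and all above them at day 5. The effects were -1.44 ± 0.28 and 4.74 ± 0.27, and the interaction was 6.19 ± 0.38 (adjusted p = 9.29e-09). Hp (haptoglobin) grew from 2.55 to 7.11, Saa3 (serum amyloid A3) from 1.39 to 7.34, Camp (cathelicidin) from 2.24 to 6.24, and Cybb, the membrane subunit of the phagocyte NADPH oxidase, from 0.69 to 2.47. Some of these genes are also made by neutrophils: the neutrophil markers summed to 517 to 601 CPM in uninfected day 1, 950 to 1210 in exposed day 1, 613 to 779 in uninfected day 5 and 469 to 952 in exposed day 5 libraries. Of 9 tested neutrophil markers 2 were higher and 4 lower for the interaction, and their part in these results was not tested. Srgn, the core protein of the granule proteoglycan serglycin, likewise turned, from -1.06 ± 0.25 to 2.02 ± 0.25, with an interaction of 3.07 ± 0.35 (adjusted p = 7.01e-06). Its exposed libraries lay at 16.6 to 19.9 CPM against 34.2 to 43.3 CPM in uninfected ones at day 1, and at 139 to 359 against 41.8 to 86.3 CPM at day 5.

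Of the matrix proteases and their inhibitors, 3 were raised and 1 was lowered at day 1, against 13 and 2 at day 5. For the interaction, of 15 tested metalloproteinases and inhibitors 12 were higher and 1 lower, with medians of -0.26 at day 1 and 1.3 at day 5. Mmp13, a collagenase, moved from 0.58 to 4.96 and Timp1, a metalloproteinase inhibitor, from -0.28 to 4.14, both uncalled at day 1. Mmp2, a gelatinase, grew from 2.54 to 5.04. Mmp8, the neutrophil collagenase, was the member that went lower, from -0.41 to -4.62 (interaction -4.21 ± 0.21, adjusted p = 1.66e-10). Among secreted growth factors 8 of 15 were higher and 2 lower. Inhba (activin A subunit) grew from 1.42 to 5.97, Pdgfb from 1.12 to 6.37 and Areg (an EGF receptor ligand) from 1.70 to 6.39, while Pdgfc fell at day 5 only (-0.48 and -5.15). Of the genes of complement, coagulation and their receptors 11 of 16 were higher and 1 lower (3 lower without exposed day 5 replicate 3). C3 moved from 0.26, not called, to 1.71, Clu (clusterin) from 0.29, not called, to 3.24 and C1s1 from 2.41 to 5.52.

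Antigen presentation genes were counted by class. Class I presentation had 14 of 18 genes higher and 0 lower, with a median interaction of 0.81. Nlrc5, the transactivator of class I genes, grew from 4.19 to 6.84, Tapbp (tapasin, which helps load peptides) from 0.96 to 3.01, B2m, the class I light chain, from 0.60 to 2.01 and H2-K1 from 1.09 to 2.76. Class II presentation had 4 of 14 higher and 5 lower, against 16.4% and 19.5% of all genes tested. H2-Aa, a class II alpha chain, stood at 14.9, 16.2, 15.1 and 14.2 CPM in uninfected and 7.65, 5.31, 7.04 and 6.11 CPM in exposed day 1 libraries. At day 5 the levels were 39.5, 39.8, 92 and 86.1 CPM without and 82.3, 127, 153 and 99.6 CPM with exposure, so that the groups were separate at day 1, with exposed libraries lower, and overlapped at day 5. The effects were -1.21 ± 0.27 and 0.84 ± 0.25, the interaction was 2.05 ± 0.37 (adjusted p = 0.000411), and the level rose between days in both arms, by 2.09 in uninfected and by 4.14 in exposed cultures. Ciita, the master activator of class II genes, turned the opposite way. It stood at 1.09, 1.04, 1.1 and 1.1 CPM in uninfected and 2.58, 2.98, 2.77 and 2.8 CPM in exposed day 1 libraries. The day 5 values were 12.1, 16.4, 15.7 and 19.5 CPM in uninfected and 9.5, 9.9, 12.6 and 7.54 CPM in exposed libraries, overlapping between the arms. The effects were 1.36 ± 0.16 and -0.69 ± 0.14, and the interaction was -2.04 ± 0.22 (adjusted p = 1.24e-06); Ciita rose between days by 3.87 in uninfected and by 1.83 in exposed cultures. Costimulatory and adhesion molecules had 8 of 13 higher and 1 lower, among them Icam1, the ligand of LFA-1, which grew from 0.73 to 1.77.

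**Figure D4:**
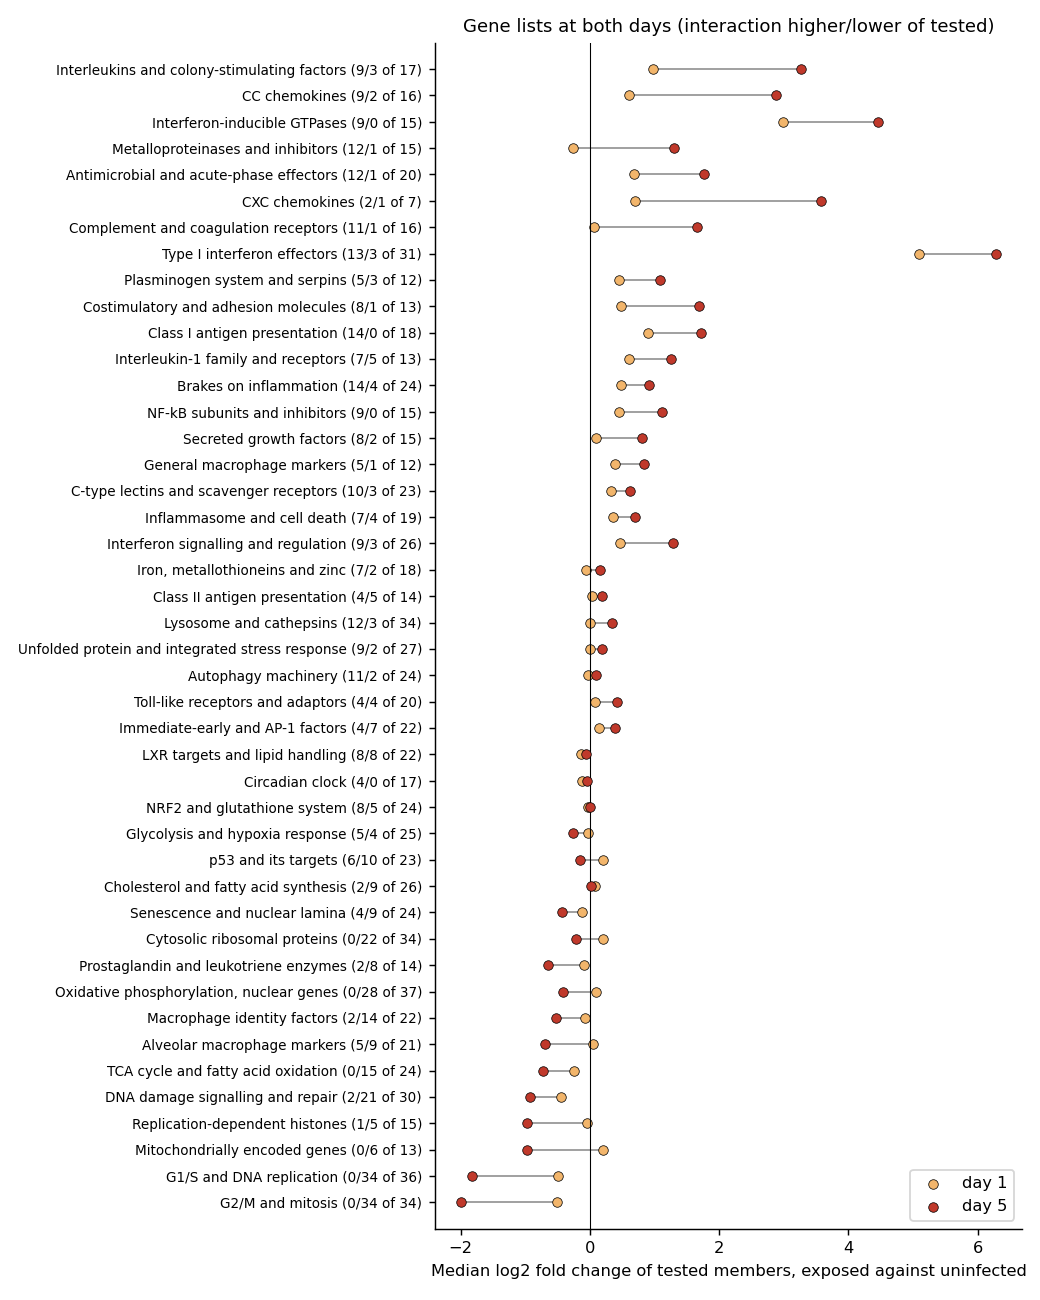
Median log2 fold change of exposed against uninfected cultures over the tested members of each gene list at day 1 and at day 5, joined by a line, with the numbers of members higher and lower for the interaction in brackets. Type I interferon effectors stand highest at both days (5.09 and 6.28), and the G1/S and G2/M lists move from about -0.5 to -1.83 and -1.99.

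Cell-cycle genes moved down together. All 34 tested G2/M genes and 34 of 36 G1/S and DNA replication genes had a lower effect at day 5 and 0 a higher one, against 19.5% lower among all genes. The median effect went from -0.51 to -1.99 for G2/M and from -0.49 to -1.83 for G1/S genes. Ccnd1 and Ccnd3, cyclins of the G1 phase, moved from -0.66 to -2.55 and from -0.26 to -2.30, and Fen1, a flap endonuclease of replication, from -0.50 to -2.06. Cdc20, the activator of the anaphase-promoting complex, moved from -0.49, not called, to -2.29, with an interaction of -1.80 ± 0.27 (adjusted p = 7.71e-05). Rbl1, the pocket protein p107, moved from -0.66 to -1.96, with an interaction of -1.30 ± 0.16 (adjusted p = 6.49e-06). Of 30 DNA damage and repair genes 21 were lower and 2 higher, among the lower ones the helicase gene Blm (-0.50 and -1.28) and the mismatch repair gene Msh6 (-0.45 and -1.20). Promoters of Cdc20 (chr4:118437344-118437463, minus strand) and Rbl1 (chr2:157204535-157204654, minus strand), from RefSeq's GRCm38.p6, are shown because they hold the letters that mark these lists: TTTGAA, the cell cycle homology region (CHR), and TTTNNCGC, an E2F motif, in capitals.
Cdc20: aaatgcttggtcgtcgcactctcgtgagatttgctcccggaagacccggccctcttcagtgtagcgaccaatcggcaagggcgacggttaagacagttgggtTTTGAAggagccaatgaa
Rbl1: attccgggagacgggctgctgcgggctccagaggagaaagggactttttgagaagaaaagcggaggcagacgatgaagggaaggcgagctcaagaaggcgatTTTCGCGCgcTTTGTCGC
On both strands of 300-base windows the CHR letters stood in 21 of 28 promoters of G2/M genes against 18.1% of all promoters and 12.7% of those of the genes tested. The E2F letters stood in 12 of 28 promoters of G1/S genes against 5.27% of all promoters and 8.17% of those of the genes tested.

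Genes used as signs of senescence and of p53 activity did not move as 1 group. Of 24 tested senescence and lamina genes 4 were higher and 9 lower, where 16.4% of all genes tested were higher and 19.5% lower; the higher count is at that general share. Cdkn2a, the locus of p16 and p19ARF, whose transcripts gene counts do not separate, stood at 10.3, 8.03, 11.7 and 10.2 CPM in uninfected and 12.9, 11.1, 11.8 and 10.8 CPM in exposed day 1 libraries. The day 5 levels were 13.2, 12.7, 12 and 9.71 CPM in uninfected and 4.52, 3.01, 3.16 and 3.1 CPM in exposed libraries. Groups overlapped at day 1, and at day 5 all exposed libraries were below all uninfected ones. The effects were 0.22 ± 0.14, not called, and -1.78 ± 0.14, and the interaction was -2.0 ± 0.20 (adjusted p = 6.03e-07). Cdkn1a, which encodes p21, had an interaction of -0.04 ± 0.22 (adjusted p = 0.913), with values of -0.09 and -0.13 that were not called at either day. Lmnb1, the lamin B1 gene, moved from -0.68 to -2.45, Hmgb2, a chromatin protein gene, from 0.02, not called, to -1.87, and Hmga1, another chromatin protein gene, from 0.31, not called, to 2.55. Of 23 p53 genes and targets 6 were higher and 10 lower. Btg2, an antiproliferative gene, turned from 0.67 to -1.10 (interaction -1.77 ± 0.13, adjusted p = 1.27e-08), Bbc3, the BH3-only protein PUMA, from 0.63 to -0.74, and Trp53inp1 from 0.55 to -0.62.

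Genes of mitochondrial respiration and of the ribosome had lower effects at day 5. Among the 37 nuclear-encoded respiratory chain genes 28 were lower for the interaction and 0 higher, with medians of 0.09 at day 1 and -0.41 at day 5. Ndufa1, a subunit of complex I, turned from 0.30 to -0.37 (interaction -0.68 ± 0.11, adjusted p = 0.000154). Cox7a1, an isoform of a complex IV subunit, turned as well. Its levels were 1.95, 1.98, 2.73 and 1.72 CPM in uninfected and 6.32, 4.82, 5.15 and 4.87 CPM in exposed day 1 libraries. Day 5 levels were 4.94, 5.76, 4.95 and 6.53 CPM in uninfected and 2.18, 1.86, 1.74 and 1.18 CPM in exposed libraries. Exposed libraries were all higher at day 1 and all lower at day 5, with effects of 1.34 ± 0.18 and -1.66 ± 0.18 and an interaction of -3.00 ± 0.26 (adjusted p = 9.54e-08); uninfected cultures rose by 1.41 between days. Of the 13 mitochondrially encoded genes 6 were lower and 0 higher, and 10 were lower without exposed day 5 replicate 1 or without uninfected day 5 replicate 1. These genes took 1.98% to 2.23% of counts in uninfected day 1, 1.8% to 2.69% in exposed day 1, 1.58% to 1.84% in uninfected day 5 and 0.78% to 1.24% in exposed day 5 libraries. Of 24 genes of the TCA cycle and fatty acid oxidation 15 were lower and 0 higher, among them Idh1 (-0.51 and -2.59) and Cpt1a, the carnitine shuttle enzyme (-0.44 and -1.29). Of 34 ribosomal protein genes 22 were lower and 0 higher (10 lower with no filter on low counts), with medians of 0.2 and -0.21; Rps14 moved from 0.69 to -0.05, not called at day 5.

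Transcript length moved with the interaction and with these classes. The median interaction was -0.19 for genes of up to 1845 bases (4269 genes) and 0.10 for those of 5873 bases or more (4266 genes), with 9.37% and 25.9% of them higher and 17.8% and 16.3% lower. The median exonic length was 2508 bases for genes turned from raised to lowered and 2290 for lost raised genes, against 6353 for genes turned from lowered to raised, 7388 for lost lowered genes and 3484 for all tested. The set of up to 1845 bases had a median effect of 0.19 at day 1 and 0.05 at day 5, and the set of 5873 bases or more one of -0.07 and 0.06. Within libraries, the median of the shorter set minus that of the longer one, on the log2 CPM scale and relative to the mean of uninfected libraries of the same day, was 0.2 to 0.36 in exposed day 1, -0.23 to 0.28 in exposed day 5 and -0.13 to 0.15 in uninfected libraries. The part of length in the interaction calls, in the classes and in the counts of the gene lists was not tested.

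Lipid, lysosomal and stress genes had members called in both directions. Lysosomal genes had 12 of 34 members higher and 3 lower, and autophagy genes 11 of 24 higher and 2 lower. Among all genes tested 16.4% were higher and 19.5% lower, so the lower counts of both lists were under the general share. Ctsb (cathepsin B) moved from -0.07, not called, to 1.53, Cst7 (cystatin F, an inhibitor of lysosomal cathepsins) grew from 1.88 to 5.56, and Optn, an autophagy receptor, moved from 0.22, not called, to 1.11. LXR targets and lipid handling genes had 8 of 22 in each direction. Abca1, the cholesterol exporter, grew from 0.47 to 1.62, while Srebf1 and Elovl6, of fatty acid synthesis, had no called effect at day 1 and stood at -1.87 and -1.98 at day 5. In the NRF2 and glutathione list 8 of 24 were higher and 5 lower, the latter near the 19.5% of all genes tested: Hmox1 (heme oxygenase) moved from -0.06, not called, to 1.71, Slc7a11, the cystine importer, grew from 0.89 to 3.30, and Gclc, of glutathione synthesis, grew on the lowered side from -0.52 to -1.37. Of 14 prostaglandin and leukotriene enzymes 8 were lower and 2 higher. The leukotriene gene Alox5 moved from -0.42, not called, to -2.31, and the higher ones were the prostaglandin synthases Ptges (0.69 and 2.13) and Hpgds (0.58 and 1.63).

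Genes of macrophage identity also shifted between the days. Of 22 tested macrophage transcription factors 14 were lower and 2 higher. Klf4 moved from -0.58 to -1.62, Pparg, which alveolar macrophages need, from -0.46 to -1.05, and Irf8 from -0.74 to -1.76, while Cebpd turned from 0.47 to -1.11. Irf4, which stood among the markers of dendritic cells, grew from 0.74 to 3.64; those markers summed to 20.5 to 21.7 CPM in uninfected day 1, 29 to 35 in exposed day 1, 20.1 to 22.3 in uninfected day 5 and 57.1 to 84.1 CPM in exposed day 5 libraries, and their part in it was not tested. Of 21 alveolar markers 9 were lower and 5 higher: Fabp1 and Mrc1 (the mannose receptor) had no called effect at day 1 and stood at -3.82 and -1.88 at day 5, Chil3 moved from -0.81 to -2.43, and Itgax (CD11c) was raised at day 5 only (0.07 and 2.27). Among 12 general macrophage markers 5 were higher and 1 lower. Csf1r, the M-CSF receptor, grew from 1.42 to 3.02, and Cd14, the lipopolysaccharide co-receptor, moved from 0.36, not called, to 3.89. The lower one was Aif1, whose interaction of -1.02 lost its call in 17 of 27 alternatives. Of the higher ones Adgre1 lost its call in 5 of 27 and Cd68 in 2, and Csf1r, Cd14 and Itgam in 0. The receptor of unmethylated DNA, Tlr9, went from 0.10, not called, to -1.80, and the beta-glucan receptor Clec7a (dectin-1) from 0.73 to 2.44.

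The leukocyte surface gene Cd244a was among the 10 lowest interactions that met the naming rule. It encodes an immunoreceptor of the SLAM family and stood at 3.33, 3.69, 3.62 and 3.31 CPM in uninfected and 2.72, 2.83, 2.51 and 2.88 CPM in exposed day 1 libraries. Values on the later day were 39.2, 37.1, 54.7 and 65.6 CPM without and 1.25, 0.699, 1.67 and 0.624 CPM with exposure. Uninfected cultures rose by 3.82 between days, and all exposed day 5 libraries lay below every other library. The interaction was -5.19 ± 0.33 (adjusted p = 9.29e-09), with -0.35 at day 1 and -5.54 at day 5. At the other end, the largest interactions that met the naming rule were those of Tnfrsf11b (9.17) and H2-M2 (8.93). These rested on few control counts. Tnfrsf11b, the decoy receptor osteoprotegerin, had 26 and 3 counts in uninfected libraries of day 1 and day 5 against 71 and 4922 in exposed ones. H2-M2, a class Ib gene, had 23 and 12 against 245 and 55127.

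Clock genes held 1 of the 5 effects that shrank from the lowered side. Nr1d1, the transcriptional repressor REV-ERB-alpha, stood at 28.8, 28.2, 28.6 and 31.5 CPM in uninfected and 10.4, 10.3, 9.58 and 9.67 CPM in exposed day 1 libraries. Later values were 18.1, 16.8, 18.2 and 18 CPM in uninfected and 10.9, 14.6, 16 and 14.1 CPM in exposed day 5 libraries. Exposed libraries lay below uninfected ones at both days, by less at day 5. The effects were -1.55 ± 0.10 and -0.36 ± 0.10, and the interaction was 1.20 ± 0.14 (adjusted p = 2.47e-06). Its paralog Nr1d2 turned from -0.35 to 0.49 (interaction 0.84 ± 0.12, adjusted p = 3.45e-05). Of 17 clock genes 4 were higher for the interaction and 0 lower, so that 23.5% of the list was called, below the 35.9% of all genes tested. Sampling times within the day are not given in the sources used here.

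**Figure D5:**
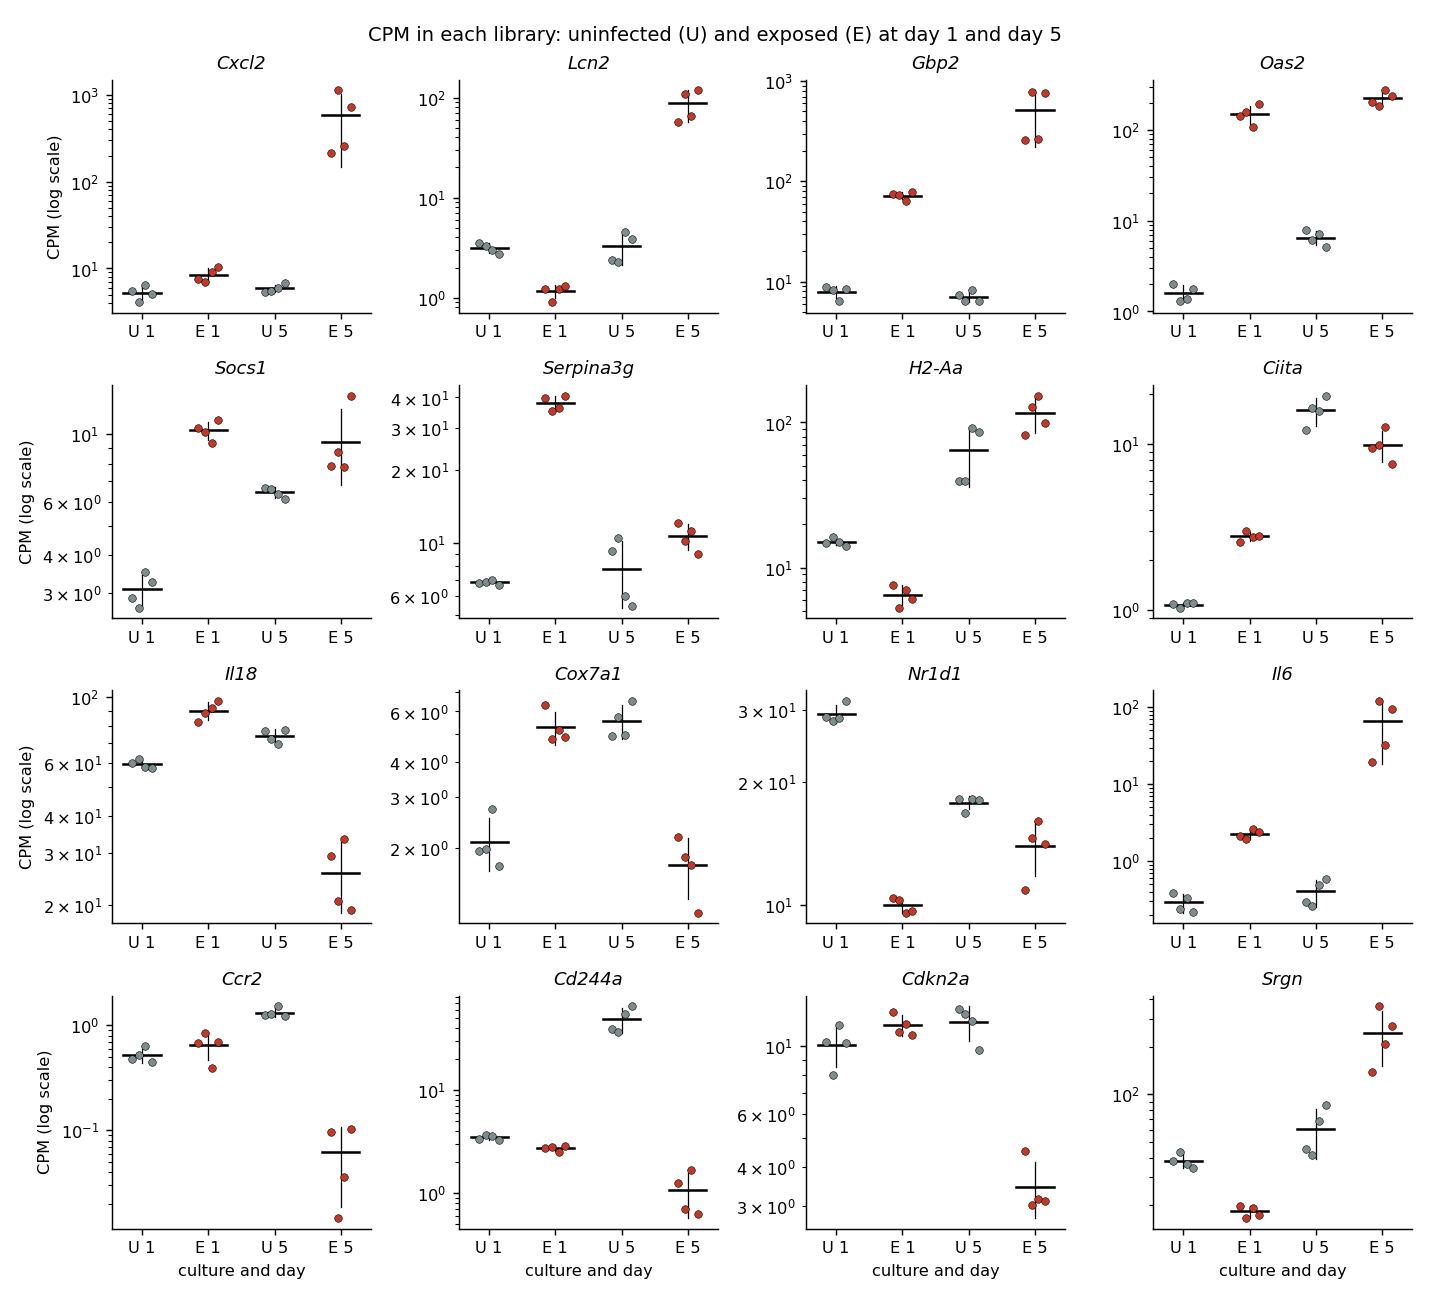
CPM of 16 genes in every library (points, log scale), with the mean (horizontal line) and SD (vertical line) of each group of 4, for uninfected (U) and exposed (E) cultures at day 1 and day 5. Cxcl2, Il6, Gbp2 and Lcn2 are highest in exposed day 5 libraries, Ccr2, Cd244a and Cdkn2a are lowest there, and Serpina3g is highest in exposed day 1 libraries.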

How the data were processed

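Polyadenylated RNA of 16 libraries was sequenced, and the authors used STAR and GRCm39, per the submitters' processing notes, which name no version. The authors deposited unnormalised counts of 55359 genes, from reverse-strand reads per the file names; on checking, all values were whole and library totals differed. Symbols came from GENCODE M21 for 52083 genes, the others holding 0.449% of counts, and since that release rests on another assembly no gene coordinates are given. Promoters came from RefSeq on GRCm38.p6.

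Genes that passed edgeR's filterByExpr by group (17190) were scaled by TMM and fitted with 1 mean per group in edgeR's quasi-likelihood model (edgeR 4.0.16, R 4.3.3). Tests were two-sided, with Benjamini-Hochberg adjustment over all genes tested. The median log2 effect of a list is over its tested members. An effect was called at an adjusted p under 0.05; called interaction genes were sorted by their calls at each day. Where a group had few counts, 3 counts over its libraries served as the floor, and values are then given as counts.

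The text names the 10 highest and 10 lowest called interactions with at least 5 CPM in the highest group and a regular symbol, 6 genes per class, 6 members of smallest p per list, a fixed panel, and list members that went against the majority. Ifi27l2a, Cd3e and Retnlg are named for their list membership, and Csf2, Nos2, Ifnb1 and the genes shown with sequences or in every library were picked after their values were seen. A few genes that the rule names are not reported here. The members and the 51 lists were chosen with earlier results of these data known. No block entered this model. Alternatives were DESeq2 1.42.0, limma 3.58.1 (voom with quality weights per group), 3 other scalings, 2 other filters, a replicate block, each library left out, the 2 libraries of another code series left out, and replicates 1 and 2 or 3 and 4 alone. On simulated data (16966 genes, 4 libraries per group), 16766 genes were left unchanged. There the interaction test called 22.4%, 79.1% and 98.5% of genes changed by 0.5, 1 and 2 on the log2 scale. It called 0.0179% of unchanged genes. These rates describe the simulation only. In the 16 libraries 35.9% of genes tested were called. The median SD of a gene was 0.299 in exposed day 5 libraries and 0.113 to 0.148 in the other groups. Whether the simulated rates carry over to such libraries was not tested. Figures were drawn with matplotlib 3.10.9.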

Additional observations from a re-analysis of the deposited data

Results flagged for a closer look

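Within groups of 4 libraries, 76 sets of values were examined for a library that lay apart by Dixon's criterion, and 6 had one; chance gives about 1 in 20. Socs1 stood at 13.4 CPM in exposed day 5 replicate 4 against 7.83 to 8.74 CPM in the other 3 libraries. Cdkn2a stood at 4.52 CPM in exposed day 5 replicate 1 against 3.01 to 3.16 CPM. Ciita was lowest in uninfected day 1 replicate 2, at 1.04 CPM against 1.09 to 1.1 CPM, and Nr1d1 was lowest in uninfected day 5 replicate 2, at 16.8 CPM against 18 to 18.2 CPM. On the third principal component exposed day 1 replicate 4, the library with the fewest counts, lay at 34.18 against 5 to 8.045 for its group, and uninfected day 5 replicate 4 lay at 29.65 against 11.77 to 13.77. The exposure effect differed between days, by edgeR's test of the interaction itself, for 2826 genes that were higher and 3347 that were lower at day 5.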

How the results depend on the processing

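The widest group sets the limit of precision: exposed day 5 libraries had a mean quality weight of 0.339 against 1.21 to 1.88 in the other groups. Across the alternatives 0 genes were called with the opposite sign, the median interaction of all genes lay between -0.115 and 0.015, and the share of calls that were higher lay between 38.2% and 50.8% (45.8% as reported), the lowest with library totals alone and the highest with DESeq2. All 100 genes named with an effect at both days and an interaction kept the direction and the side of the threshold of their interaction in every alternative but 2: 5 lost their call with replicates 1 and 2 alone and 7 with replicates 3 and 4 alone. With at least a 2-fold interaction 1226 genes were higher and 1302 lower.

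With 1 library left out, between 2454 and 3450 genes were higher and between 2945 and 3920 lower. Over the same fits grown raised genes numbered 458 to 730, grown lowered 393 to 742, late raised 1574 to 2015, late lowered 1930 to 2414, lost raised 157 to 371, lost lowered 89 to 335, turned from raised to lowered 94 to 307, turned from lowered to raised 58 to 322, shrunk raised 17 to 28, shrunk lowered 4 to 17 and genes called at neither day 196 to 258.

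With replicates 1 and 2 alone 1481 genes were higher and 1675 lower, and the classes were 193 grown raised, 84 grown lowered, 1188 late raised, 1426 late lowered, 64 lost raised, 32 lost lowered, 34 turned from raised to lowered, 18 turned from lowered to raised, 6 shrunk raised, 1 shrunk lowered and 110 neither. With replicates 3 and 4 alone 811 were higher and 1083 lower, and the classes in the same order were 134, 49, 643, 975, 18, 12, 5, 6, 2, 0 and 50. Fewer libraries entered these fits.

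Voom with weights per group gave 1007 grown lowered, 1397 late raised and 1390 late lowered genes. It also gave 348 lost lowered, 414 lost raised, 263 turned from lowered to raised and 306 turned from raised to lowered genes. DESeq2 gave 291 lost lowered, 9 shrunk lowered and 205 turned from lowered to raised. Without the 2 libraries of another code series 374 lost lowered, 442 lost raised, 12 shrunk lowered, 302 turned from lowered to raised and 347 turned from raised to lowered genes were found. With no filter 3 were shrunk lowered, 13 shrunk raised and 82 turned from raised to lowered, with a filter of 1 CPM 8 were shrunk lowered, and with library totals alone 10 were. The cause of these differences was not tested.

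Whether the replicate numbers pair the libraries is not given in the labels. Deviations of same-numbered libraries correlated between -0.151 and 0.148 over 24 pairs, of which 3 exceeded 0.1. For libraries of different numbers the range was -0.347 to 0.302 over 72 pairs, of which 5 exceeded 0.1. With the replicate number as a block 2725 genes were higher and 3267 lower.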
